A study of Bos taurus with 9 samples.

Results

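Small RNA loci of 25 to 30 bases that lie outside the 2 miRNA tables of the study were examined in extracellular vesicles (EVs) of bovine follicular fluid. A locus is a stretch of the genome covered by mapped reads, and its length was taken as end minus start plus 1. Of 101889 deposited loci, 17627 had a length in this range and an identifier absent from the tables of known, homologous and predicted miRNA. The EVs came from fluid that was pooled from antral follicles of abattoir cow ovaries, in 3 pools of small follicles (3 to 5 mm in diameter), 3 of medium follicles (6 to 9 mm) and 3 of large follicles (over 9 mm). Each pool mixed many follicles, healthy and atretic, and no agent was given to any group. RNA of each pool gave 1 library, and the libraries are called here by follicle size and by the number in their labels. Fluid of each size was gathered in each of 3 collections, but no label says which pools shared one, so differences between collections stand in the spread within a size.

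EVs are membrane particles that cells release with protein and RNA inside, and in follicular fluid they pass between granulosa cells, cumulus cells and the oocyte. The range of 25 to 30 bases is known as the size of piRNA, the small RNA that PIWI proteins of germ cells use to silence transposons, and piRNA genes typically lie in clusters and are often transcribed from 1 strand. Fragments of tRNA, Y RNA, rRNA and repeats can have the same length. The loci carry a position, a strand and counts but no gene class here, and length alone does not make a locus a piRNA. Their sequences and the genes that overlap them were not analysed here, because no genome or annotation of the UMD3.1 assembly was used. All positions below refer to UMD3.1.

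The share of all counts on the loci of 25 to 30 bases overlapped between the follicle sizes, but which loci held it differed. Their share was 26.1%, 14.3% and 20.9% in small replicates 1, 2 and 4. It was 26.7%, 17.6% and 21.1% in medium replicates 5, 6 and 8. In large replicates 10, 11 and 12 it was 17.2%, 18.3% and 18.1%. The means were 20.4% ± 5.91 (SD, n = 3) for small, 21.8% ± 4.57 (n = 3) for medium and 17.9% ± 0.56 (n = 3) for large follicles, so the 3 sizes overlapped. The share moved by -1.29 percentage points per size step, with p = 0.482 in an exact two-sided permutation test over 1680 arrangements of the samples. With 3 pools per size this does not show that the shares are equal. The result also depended on the total used: as a share of loci of 18 to 30 bases only, the means were 42.2% ± 4.72 for small, 64.3% ± 10.2 for medium and 68.6% ± 7.83 for large follicles. Total counts ran from 8941598 to 14664460 and the 95% Wilson interval of each share, which covers counting error only, reached at most 0.0251 percentage points from it.

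A set of 7 loci on chromosome 25, all of 25 bases, held a large part of these counts in small follicles. They held 14.8%, 3.09% and 8.70% of all counts in the small samples and 8.84%, 1.84% and 2.78% in the medium samples. In the large samples they held 0.430%, 0.170% and 0.442%. Each large sample was thus below each small and each medium sample, while small and medium samples overlapped. The other loci of 25 to 30 bases went the other way: 11.3%, 11.2% and 12.2% in the small, 17.8%, 15.8% and 18.3% in the medium, and 16.8%, 18.1% and 17.6% in the large samples. Their small samples lay below all medium and large samples, and medium and large samples overlapped. With the 7 loci taken out of the share and of the total, the change per size step was 2.41 percentage points (exact permutation test, p = 0.0238). That split was chosen after the data were seen. The rise holds for shares of the total: over all tested loci of the class, the median log2 fold change of large against small follicles was 1.54 with total-count scaling but -0.203 with TMM scaling.

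**Figure D1:**
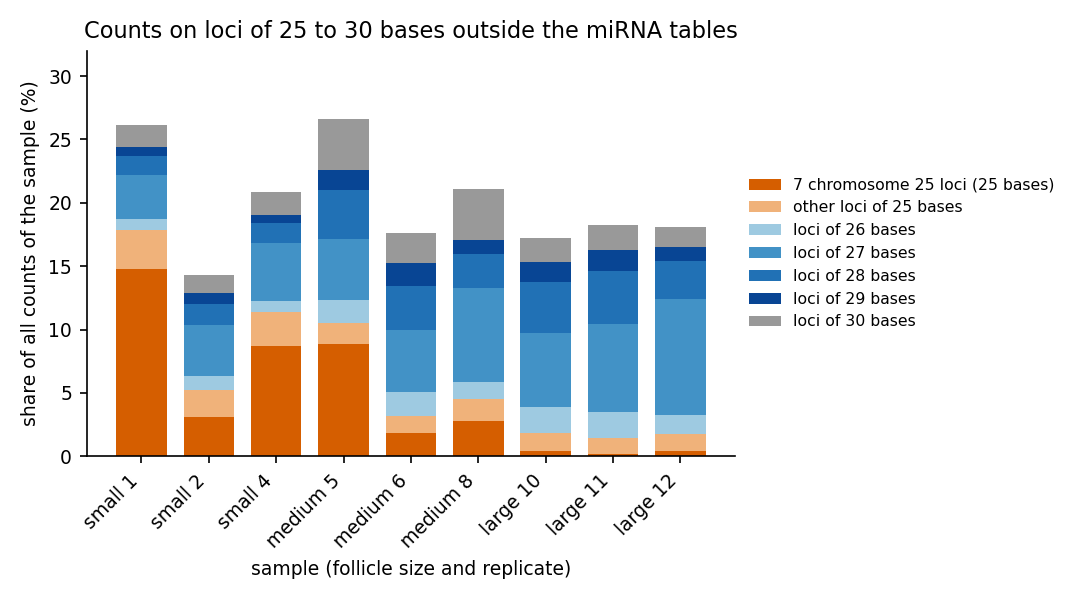
Stacked bars give, for each of the 9 samples, the percentage of all counts on loci of 25 to 30 bases outside the miRNA tables, divided by locus length, with the 7 chromosome 25 loci apart. The dark orange part goes from 14.8% in small replicate 1 to under 0.5% in the large samples, while the blue parts (26 to 29 bases) are taller in every medium and large sample than in any small sample.

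Shares by length, which overlap with the split above for 25 bases, also differed. Loci of 25 bases held 11.5% ± 6.32 of all counts for small, 6.11% ± 3.91 for medium and 1.67% ± 0.215 for large follicles (SD, n = 3 each), and without the 7 chromosome 25 loci 2.63% ± 0.483, 1.62% ± 0.217 and 1.32% ± 0.0646. Means of the 27-base loci were 4.00% ± 0.542, 5.73% ± 1.5 and 7.29% ± 1.69 in the same order, and those of the 28-base loci 1.6% ± 0.0993, 3.32% ± 0.577 and 3.74% ± 0.628. Loci of 26 to 29 bases together held 7.31% ± 0.662, 12.2% ± 0.264 and 14.4% ± 0.743, a change of 3.52 percentage points per step. Their p of 0.00119 in the exact permutation test is the smallest that 9 samples in 3 groups of 3 allow. This too holds for shares of the total: with TMM scaling the median log2 fold changes of large against small follicles were -0.275, -0.057, -0.125 and -0.25 for 26, 27, 28 and 29 bases. Loci of 30 bases had another pattern and were highest in medium follicles, at 3.49% ± 0.963 against 1.64% ± 0.212 in small and 1.83% ± 0.227 in large follicles. Other classes moved too: the loci of the miRNA tables held 22.2% ± 6.62, 7.89% ± 4.08 and 4.87% ± 2.13 of all counts, and the part of that difference in the other shares was not tested.

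Most loci were small and a few held most of the counts. The median total over the 9 samples was 162 counts, the 10th percentile was 68 and the 90th was 1066, and 2741 of the 17627 loci reached the study's minimum of a mean of 100 counts in a size group. The commonest length was 28 bases (3938 loci), followed by 29 (3353 loci) and 30 bases (3335 loci), and 25 bases was the rarest (1563 loci). By counts the order differed: the 25-base loci held 33.9% of the 20411900 counts and the 27-base loci 27.5%. The plus strand had 8991 loci, or 51.0%, but 79.8% ± 6.88 of the counts for small, 68.8% ± 5.45 for medium and 62.9% ± 6.08 for large follicles (SD, n = 3 each). Without the 7 chromosome 25 loci, all on the plus strand, those shares were 66.6% ± 2.14, 61.3% ± 5.87 and 62.2% ± 6.07, and the 3 sizes overlapped. The 10 loci of highest total held 63.4%, 35.4% and 54.96% of the counts on this class in the small samples, 37.5%, 19.3% and 35.03% in the medium samples, and 12.9%, 13.8% and 33.3% in the large samples. Large replicates 10 and 11 had the lowest values, and large replicate 12 lay inside the range of the medium samples.

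The loci of highest total were 3 loci of 27 bases outside chromosome 25, and they behaved differently from the 7. The highest, chr4:112951033-112951059 on the plus strand, had 105836, 75213 and 123505 counts in the small samples, 51760, 67158 and 191414 in the medium and 61906, 80450 and 226135 in the large samples. Medium replicate 8 and large replicate 12 were the highest of their sizes, and the 3 sizes overlapped. A second locus, chr6:76856587-76856613, followed it closely in every sample, with a total of 877108 against 983377. Neither was called in large against small follicles by edgeR's quasi-likelihood test with TMM scaling (log2 fold change -1.39, SE 0.87, FDR 0.480 and -1.36, SE 0.86, FDR 0.485), and with total-count scaling their log2 fold changes had the other sign, 0.27 and 0.30. The third, chr4:112970848-112970874, lies 19.8 kb from the first. It had 59405, 34118 and 51342 counts in small and 54698, 87062 and 223865 in large samples, with a log2 fold change of -0.29 (FDR 0.936) under TMM and 1.37 (FDR 0.0104) under total-count scaling. Its direction thus depended on the scaling.

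The 7 loci of chromosome 25 were near copies of one another in count. The first, chr25:32465610-32465634, had 309606, 39348 and 126562 counts in the small samples, 152325, 30679 and 41963 in the medium and 5860, 2449 and 7336 in the large samples. The last, chr25:32471121-32471145, had 310487, 39410 and 126605, then 153060, 30924 and 42133, then 6064, 2527 and 7344. Totals of the 7 lay between 716069 and 718554, a ratio of 1.003, and their counts varied among copies no more than sampling noise (chi-square per degree of freedom 0.804). All 7 were on the plus strand, 25 bases long, and their starts stood 967, 956, 963, 833, 915 and 877 bases apart. Whether the 7 loci share reads was not tested, since their sequences were not analysed here, and with equal counts they are given as 1 profile rather than as 7 separate observations.

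The copies had a shared neighbourhood. Exactly 130 bases after the start of each of the 7 stood another plus-strand locus of 25 bases, so that each pair spanned 155 bases. An eighth such downstream locus, at chr25:32472036-32472060, ended the array without a high locus before it. The 8 downstream loci had totals of 51259 to 51635, which again varied no more than sampling noise (chi-square per degree of freedom 0.944). Between each pair lay a locus of 54 or 55 bases, outside the length range, with totals of 6815 to 7499 over 8 such loci. A pattern of 3 count levels was therefore repeated along the array in the same order, and the map of the cluster shows the upper and the middle level.

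**Figure D2:**
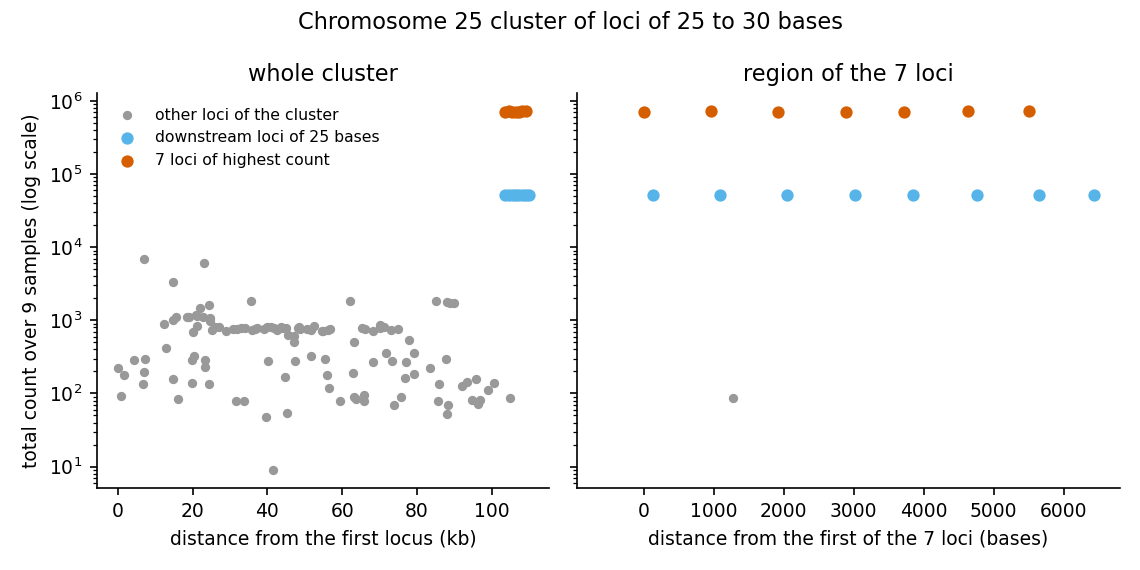
Each point is a locus of 25 to 30 bases of the chromosome 25 cluster, with its distance along the cluster on the x axis (kb on the left, bases on the right) and its total count over 9 samples on a log scale on the y axis. The 7 loci at 716069 to 718554 counts alternate with the 8 downstream loci at 51259 to 51635 counts at the end of the cluster, and the other 123 loci stay at or below 6987 counts.

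The ratio of the high locus to its downstream neighbour differed between samples. On average a high locus had 16.8, 8.34 and 13.0 times the count of a downstream locus in the small samples and 30.7, 12.8 and 8.87 times in the medium samples. In the large samples the ratio was 5.02, 2.16 and 1.83. All 3 large samples had lower ratios than any other sample, and small and medium samples overlapped. In CPM (counts scaled to the same library total in each sample), the small mean was 25.5 times the large mean for the 7 loci, 4.73 times for the downstream loci, 1.57 times for the loci between and 1.68 times for the other 123 loci of the cluster. With TMM scaling the same ratios were 86.0, 15.1, 4.98 and 5.54. The high loci thus had the largest ratio of the 4 sets under both scalings, and every large sample was below every small sample in all 4 sets.

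**Figure D3:**
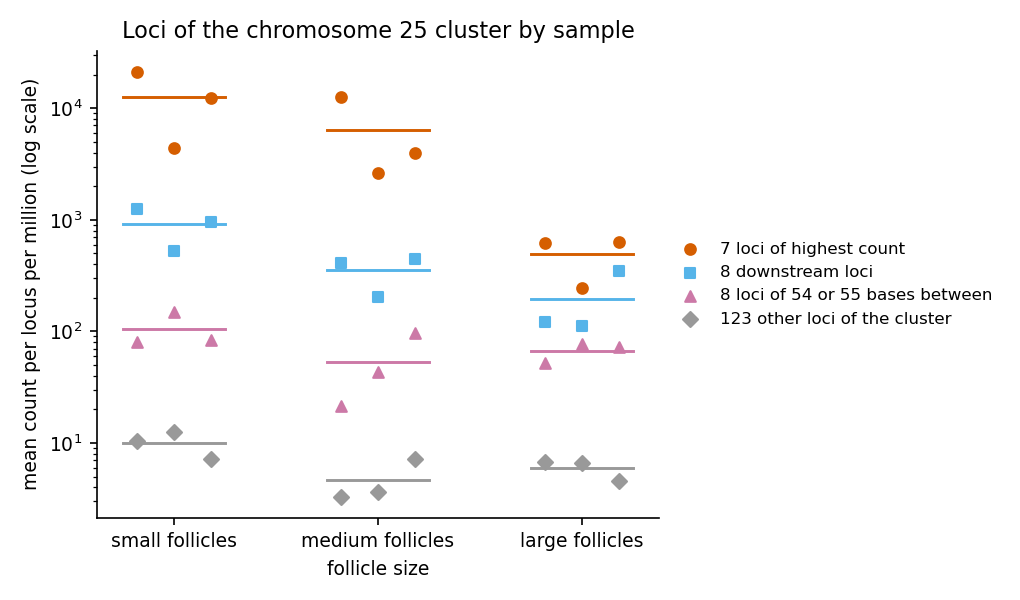
Points give, for each sample, the mean count per locus in CPM (log scale) of 4 sets of loci in the chromosome 25 cluster, and lines give the mean of 3 samples at each follicle size. The 7 high loci drop to a summed 1702 to 4421 CPM in the large samples, from 30930 to 147700 in the small samples, whereas the 123 other loci sum to 407 to 1533 CPM in all 9 samples.

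All 7 loci were called lower in large than in small follicles, with log2 fold changes from -6.45 to -6.42, an SE near 1.00 and FDRs from 0.00282 to 0.00289 in edgeR's quasi-likelihood test. With total-count scaling the log2 fold changes were from -4.69 to -4.66 and the calls remained. For medium against small follicles the values were near -2.43 with FDRs from 0.254 to 0.260 and none was called. For large against medium follicles the log2 fold change of the first locus was -4.01 (SE 0.90, FDR 0.340), and with total-count scaling it was -3.71 (FDR 0.00423). The call of that comparison therefore depended on the scaling. The 8 downstream loci were also called lower in large than in small follicles, the first of them, chr25:32465740-32465764, by -3.92 (SE 0.81, FDR 0.0131), and they kept that direction under total-count scaling, at -2.25 for that locus.

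The whole chromosome 25 cluster had the most loci and the most counts of all clusters. A cluster was defined as 5 or more loci of 25 to 30 bases with at most 10 kb between neighbours on either strand. It ran from 32362101 to 32472060, 110 kb, and held 138 loci, every one on the plus strand, with a total of 5513311 counts. Beside the 15 loci described, the cluster had 123 loci, of which 40 were 26 bases long, and their median total was 619 counts. Among all loci of the class, those on chromosome 25 held 28.8% of the counts, ahead of chromosome 4 with 12.9%.

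In all, 147 clusters held 2723 loci, or 15.4% of the loci and 51.2% of their counts. Without the chromosome 25 cluster, the clusters held 24.2% of the counts. All 101889 deposited loci, grouped by the same definition, gave 1200 clusters with 16.2% of loci and 57.4% of counts. The median cluster had 11 loci over 16.2 kb, and in 48 of the 147 all loci were on the same strand. As shares of all counts, 128 clusters had each large sample above each small sample and 17 had each large sample below, and with TMM scaling 2 clusters had each large sample above and 21 had each large sample below. Sums over many loci vary less than single loci, and clusters share loci of similar counts. These numbers of clusters thus have no background beside them and are a description.

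The next clusters by number of loci had a higher share of counts in medium and large samples. The cluster at chr3:82709232-82912241 had 135 loci, 94 on the plus and 41 on the minus strand, of which 75 were 27 bases long. It held 934, 914 and 837 CPM in the small, 2928, 2249 and 1559 in the medium and 2843, 3713 and 2574 in the large samples. The small samples were the lowest and hardly varied, while medium and large samples overlapped. Its highest locus, chr3:82740321-82740347, had a total of 13936 counts. The cluster at chr8:56713652-56854915 had 96 loci, all on the plus strand, of which 56 were 28 bases long. Its CPM were 363, 385 and 354 in the small, 1217, 1002 and 637 in the medium and 1162, 1416 and 1053 in the large samples, with the small samples again the lowest. These higher levels hold for shares of the total only: with total-count scaling the large mean was 3.4 times the small mean on chromosome 3 and 3.3 times on chromosome 8, but with TMM scaling it was 0.999 and 0.975 times, and large and small samples overlapped. Its highest locus, chr8:56846569-56846593, had 5192 counts and was 25 bases long.

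A small cluster on chromosome 15 was the second by counts. At chr15:84095767-84107204, 6 loci held 247418 counts, of which the 30-base minus-strand locus chr15:84102581-84102610 had 237269. The cluster had 2309, 1064 and 2743 CPM in the small, 5915, 1316 and 7247 in the medium and 84.5, 64.8 and 918 in the large samples. Large samples were lowest, and medium replicates 5 and 8 were the highest of all 9. Other 30-base loci of high count, chosen after their values were seen, were also highest in medium replicates 5 and 8. The locus chr16:2058444-2058473 had 34951, 9912 and 28863 counts in the small, 73160, 15883 and 78279 in the medium and 849, 720 and 11234 in the large samples, and chr20:33009814-33009843 had 28803, 7612 and 22653, then 54228, 9129 and 56035, then 862, 549 and 5430. Of these 3 loci, only that on chromosome 20 was called in large against small follicles with TMM scaling (log2 fold change -4.68, SE 1.18, FDR 0.0377, edgeR quasi-likelihood test). The loci on chromosomes 16 and 15 had log2 fold changes of -4.08 (FDR 0.0884) and -4.13 (FDR 0.0919), and with total-count scaling all 3 were called lower, with FDRs of 0.0114, 0.0119 and 0.0029.

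**Figure D4:**
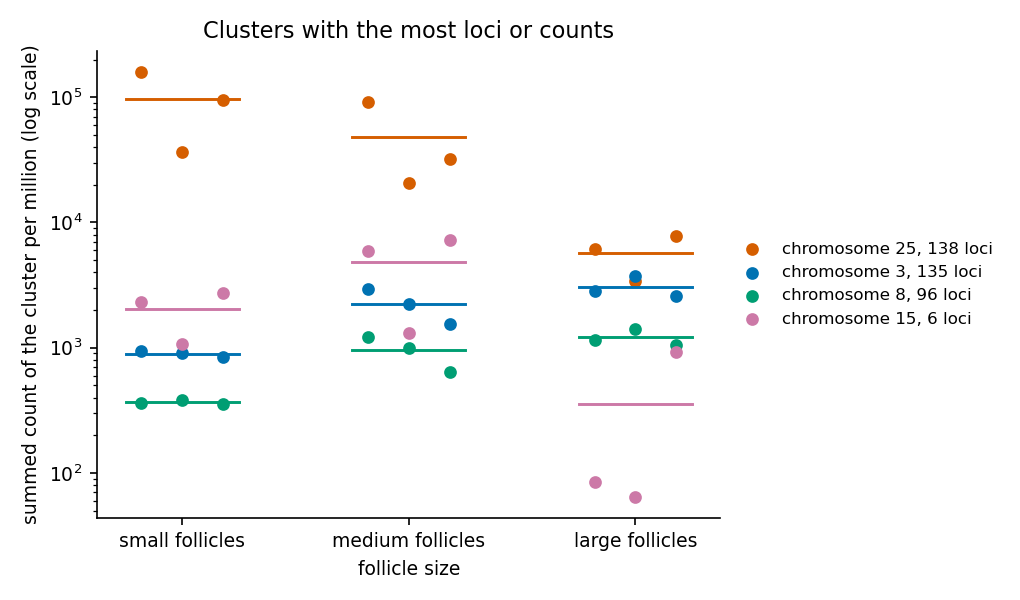
Points are the summed counts of a cluster in CPM in each sample (log scale), and lines are means of 3 samples at each follicle size, for the 4 clusters that led by number of loci or by counts. The chromosome 25 cluster has a mean of 97120 CPM in small and 5756 in large follicles, the chromosome 3 and 8 clusters are higher in every large than in any small sample on this scale but not with TMM scaling, and the chromosome 15 cluster is highest in medium follicles.

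Loci in clusters were often spaced by repeated distances. Over the clusters other than that of chromosome 25, 6012 pairs of loci on the same strand lay within 5 kb of each other. Of these, 300 pairs, or 4.99%, stood within 5 bases of a distance of 1401 bases, where a window of 11 bases held 11 pairs in the median. The next peaks, in order of pairs, stood at 697 bases (173 pairs), 118 (94), 68 (83), 2804 (68), 1378 (62), 2102 (38), 1474 (33), 1337 (32) and 3506 bases (31 pairs). In order of distance, the peaks at 697, 1401, 2102, 2804 and 3506 bases stood at near-equal steps. Those at 118, 68, 1337, 1378 and 1474 bases were outside that series. The spacing is a description of the layout, and clusters that share a repeat are not separate observations of it.

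Most of the higher loci were grouped with other loci of similar counts. Of 2115 loci with a total of at least 900 counts, 1704, or 80.6%, were in a group of 2 or more loci whose lengths differed by at most 1 base from the group's first locus and whose 9 counts did not differ from the group's mean (chi-square p above 0.001). There were 260 such groups and 411 loci alone, so the 2115 loci made 671 profiles by this rule. A p above 0.001 does not show that counts are equal, and totals within a group could differ. How many groups unrelated loci would form under this rule was not tested. The largest group had 186 loci of 26 or 27 bases on 27 chromosomes, 89 of them on the plus strand, each with a total between 1118 and 1338. Its summed CPM were 981, 899 and 920 in the small, 3005, 2126 and 1688 in the medium and 3112, 4352 and 3223 in the large samples. The next groups had 102 loci on 16 chromosomes and 70 loci of 28 bases on 22 chromosomes, and their small samples were lowest too. From small to large follicles the median log2 fold change in the 3 groups was 0.16, 0.24 and -0.07 with TMM scaling and 1.93, 2.01 and 1.71 with total-count scaling, and no locus of the 3 groups was called with TMM scaling.

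The equal-count groups also joined loci inside and outside the miRNA tables. Of 411 loci of the tables that had 25 to 30 bases and at least 900 counts, 396 fell in 40 groups together with 534 loci outside the tables. Loci grouped by this rule were thus on both sides of the tables' border. Whether loci of equal count share reads was not tested.

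Some groups of equal count were lower in large follicles. A pair of 25-base loci on the minus strand, chr28:1894646-1894670 and chr21:60891279-60891303, was the highest such pair after the chromosome 25 array and was chosen after its values were seen. The chromosome 28 locus had 43222, 22164 and 25588 counts in the small, 11045, 5817 and 14576 in the medium and 4343, 3818 and 7283 in the large samples, and each small sample was above all others. It was called lower in large than in small follicles (log2 fold change -4.15, SE 0.72, FDR 0.00502, edgeR quasi-likelihood test). A set of 5 further 25-base loci, on chromosomes 21, 4, 20, 5 and 18, had totals between 88320 and 89178 and was also chosen after its values were seen. These loci were lower in large follicles by 4.34 to 4.39 on the log2 scale with TMM and by 2.61 to 2.66 with total-count scaling. Like the pair, they were taken from loci called lower under both scalings, so their direction was part of the choice.

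Over all members of the class, most calls in large against small follicles were lower. The filter kept 15638 of the 17627 loci, and 1989 were not tested. Of those tested, 1008 (6.45%) were called at an FDR under 0.05 by edgeR's quasi-likelihood test with TMM scaling, where 5.87% of all 85601 tested loci were called. Only 24 were higher, against a background of 0.231%, and 984 were lower, against a background of 5.63%. With TMM scaling and this filter the class was thus called about as often as loci at large. With total-count scaling, 8550 of the 15638 were called, 7730 higher and 820 lower, against 64.5%, 59.5% and 5.02% of all tested loci. On that scale the class was called less often than loci at large, and less often higher. The scaling thus changed which loci were called, and with it the direction of most calls in the class: the median log2 fold change was 1.74 higher with the total count than with TMM. TMM factors were 0.41 to 0.62 in the small and 0.72 to 1.97 in the other samples. Under both scalings 740 loci were called lower and 24 higher, and none was called in opposite directions. How many of all tested loci were called under both scalings was not counted, so these numbers have no background. By the samples themselves, 845 loci (5.4%) had each large sample above each small sample with TMM scaling, against 12.9% of all tested loci, and 3028 (19.4%) had each large sample below, against 13%. With total-count scaling 9294 (59.4%) were above and 883 (5.65%) below, against 69.7% and 5.61%. Without large replicate 10 the number called with TMM scaling was 574, against 2699 of all 85601 tested loci. Without large replicate 11 it was 516, against 2408.

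**Figure D5:**
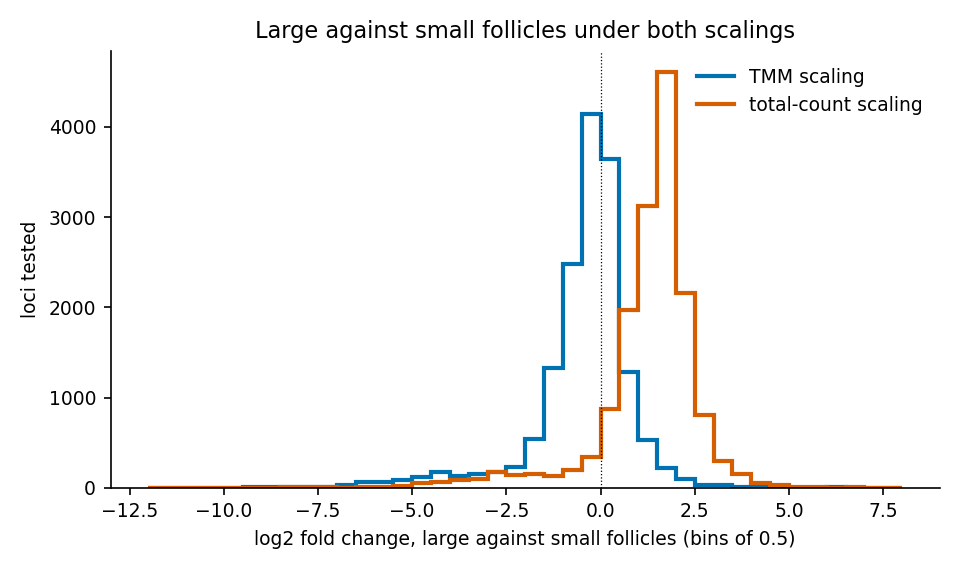
Outlines count the 15638 tested loci of 25 to 30 bases in bins of 0.5 by their log2 fold change of large against small follicles, with TMM scaling in blue and total-count scaling in orange. The peak lies just below 0 with TMM scaling and between 1.5 and 2 with total-count scaling, and both outlines have a tail of lower loci.

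The share of lower calls differed by length without a steady order. Among tested loci of 25 bases 10.1% were lower in large than in small follicles with TMM scaling, among those of 26 bases 8.50%, and among those of 27, 28, 29 and 30 bases 5.97%, 4.23%, 5.71% and 6.51%. Of all 85601 tested loci 5.63% were called lower and 0.231% higher. The difference between lengths was not tested, and many loci of the same equal-count group enter these shares. The 411 loci of high total that stood alone had 71 lower and 1 higher call, a share of 17.3% lower. The 1704 loci in groups had 114 lower and 0 higher calls, a share of 6.69% lower. All tested loci are no background of similar count for these shares. The loci alone and in groups had totals of at least 900, and the 90th percentile over all deposited loci was 734. In a separate fit to loci with a mean of at least 100 counts, 2340 of 11770 were called, 290 of them higher. Beside that fit the share of the grouped loci was low and that of the loci alone was not high. This difference was not tested.

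Fewer loci were called between small and medium follicles, and the number rested on single libraries. With TMM scaling 257 loci (1.64%) were called, 1 higher and 256 lower, where 1.46% of all tested loci were called, 0.0105% higher and 1.45% lower. With total-count scaling 4977 of 15638 were called, 4558 higher and 419 lower, against backgrounds of 30.8%, 28.1% and 2.72%. Under both scalings 227 were lower and 1 was higher, again without a background over all tested loci. The TMM count was 0 without medium replicate 5 and 0 without medium replicate 6, where none of all 85601 tested loci was called either. It was 1016 without medium replicate 8, where 5834 of all tested loci were called. Without small replicates 1, 2 and 4 it was 24, 96 and 45, against 104, 499 and 235 of all tested loci. No locus was called in large against medium follicles by the quasi-likelihood test (background 0%), while 1457 (9.32%) had an unadjusted p under 0.05, against 6.58% of all tested loci. In that comparison edgeR's exact test called 147 (0.94%, against 0.583% of all tested loci) and DESeq2 called 205 (1.31%, against 0.773%). Total-count scaling called 44 (0.281%, against 0.161%), all lower in large follicles.

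The strongest falls were of low-count loci that had no count in large follicles. The minus-strand locus chr8:112897107-112897135 had 125, 60 and 46 counts in the small, 0, 0 and 17 in the medium and 0 in every large sample. With 3 counts over the 3 large samples as the floor, its level in large follicles was at least 72.2-fold lower with total-count and 242-fold with TMM scaling (FDR 0.0124 with TMM scaling). The locus chr5:34042850-34042877 had 51, 70 and 40 counts in the small, 3, 0 and 1 in the medium and 0 in the large samples, at least 50.3-fold (total count) and 169-fold (TMM) lower (FDR 0.000582). The others by the same rule, chr2:105363400-105363427, chr2:43382275-43382303 and chr11:98191891-98191917, were at least 60.0-fold, 41.6-fold and 37.2-fold lower with total-count scaling and 201-fold, 140-fold and 125-fold with TMM scaling. Of the 5, the call of the chromosome 8 locus was lost without large replicate 11 (FDR 0.0563).

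The strongest rises were also of low-count loci. The locus chr13:55753644-55753668 had 0 counts in the small samples, 16, 34 and 4 in the medium and 24, 62 and 7 in the large samples, at least 9.85-fold (TMM) and 33.1-fold (total count) higher in large than in small follicles (FDR 0.0334 with TMM scaling). The loci chr17:58028871-58028899 and chr2:118369065-118369090, also at 0 in all small samples, were at least 4.66-fold and 4.02-fold higher with TMM scaling, and 15.6-fold and 13.5-fold with total-count scaling. For chr6:99755441-99755470, with 1 count over the small samples, the ratio with TMM scaling was 24.8 with a 95% counting interval of 4.32 to 991, and for chr3:31338490-31338519 it was 22.6 (3.92 to 903). Each of these 5 calls was lost when at least 2 of the libraries were left out in turn. The chromosome 13 call was lost without large replicate 10 or 11 or any small replicate, with FDRs from 0.0697 to 0.109, and so was the chromosome 17 call, with FDRs from 0.0552 to 0.0812. The chromosome 2 call was lost without large replicate 10 or small replicate 1 (0.0516 and 0.0565), the chromosome 6 call without small replicate 1 or 2 (0.0675 and 0.0526) and the chromosome 3 call without small replicate 2 or 4 (0.0679 and 0.0664). With more counts, and chosen after its values were seen, the 28-base locus chr1:128883108-128883135 had 38, 40 and 19 counts in the small, 135, 542 and 81 in the medium and 547, 758 and 294 in the large samples (log2 fold change 2.37, SE 0.51, FDR 0.0152, edgeR quasi-likelihood test).

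Between small and medium follicles, chr17:58028871-58028899 was the 1 locus called higher, at least 7.13-fold with TMM and 20.3-fold with total-count scaling (FDR 0.0352 with TMM scaling). Of the 5 largest falls, chr2:129791385-129791412 had 31, 35 and 11 counts in small and 0 in every medium sample, at least 26.1-fold (total count) and 74.4-fold (TMM) lower (FDR 0.0163), and chr23:27323645-27323672 was at least 18.3-fold and 52.2-fold lower (FDR 0.0141). The others, chr11:27379592-27379616, chr7:2454917-2454943 and chr11:8934240-8934264, had 1 count in medium follicles and ratios with TMM scaling of 246, 188 and 154, with counting intervals whose lower ends were 43.1, 32.6 and 26.4. All 6 calls were lost without medium replicate 5 and without medium replicate 6, with FDRs from 0.0654 to 0.140. Over the 9 fits with a replicate left out, the chromosome 17 call was lost in 7. The calls of chr11:27379592-27379616, chr11:8934240-8934264 and chr23:27323645-27323672 were lost in 4 each, that of chr2:129791385-129791412 in 3 and that of chr7:2454917-2454943 in 2.

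Of the loci of the class, 17 lay on the mitochondrial genome, 16 of them on the plus strand. With TMM scaling 9 of the 17 were called lower in large than in small follicles and none higher, where 5.63% and 0.231% of all tested loci were, and 8 of the 9 were also lower with total-count scaling. The highest, MT:1453-1477, had 5828, 5270 and 6534 counts in the small, 1593, 2228 and 9300 in the medium and 1322, 1362 and 6345 in the large samples, with medium replicate 8 and large replicate 12 near or above the small samples, and it was not called (log2 fold change -2.59, SE 1.00, FDR 0.202, edgeR quasi-likelihood test). A called one, MT:747-772, had 66, 49 and 29 counts in small and 13, 8 and 17 in large samples (log2 fold change -3.48, SE 0.51, FDR 0.00195). The mitochondrial loci together held at most 0.0974% of the counts of any sample, a small part of the class. Fewer vesicles of a kind and less RNA per vesicle cannot be told apart in counts of this sort.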

How the data were processed

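Small RNA of 9 libraries was sequenced as single reads. The authors removed adapters, mapped reads with bwa (version 0.7.5a) to UMD3.1, merged all samples to define loci with at least 45 reads per base, trimmed each to its region of at least 20% of the peak, and deposited raw counts of reads per locus and sample, with no normalization. The handling of multiply mapped reads is not given in the sources used here. Groups came from the labels of the samples.

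Members were loci of 25 to 30 bases whose identifier is not among the 704 loci of the miRNA tables. Members and lists were chosen with earlier results of these data known. In R 4.3.3, edgeR 4.0.16 (TMM, filterByExpr, quasi-likelihood test, two-sided) was fitted to all deposited loci of the 9 samples, and Benjamini-Hochberg adjustment ran over the 85601 loci tested, and calls had an FDR under 0.05. Shares were tested with an exact permutation test in Python 3.11.15 (scipy 1.17.1). As alternatives, edgeR's exact test, DESeq2 1.42.0, other scalings, filters and thresholds, and leaving out each replicate were run. Shares without the 7 chromosome 25 loci, cluster sums with TMM scaling and fold bounds with total-count scaling were added after seeing the data. The fit was tested on simulated data with the same dispersion for all loci and as many loci raised as lowered. That simulation held no broad shift between sizes, so it does not bear on the choice of scaling. Total counts were 8941598 to 14664460 per sample, so 3 counts are 2.05e-05% to 3.36e-05% of a sample. P-values measure the spread between pools.

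Loci named by rule were the 10 members of highest total, the 7 chromosome 25 loci, the 5 largest rises and falls per comparison among called loci whose groups did not overlap, the 3 clusters with most loci and with most counts, and the 3 largest equal-count groups. Any other locus is said to be chosen after its values were seen.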

Additional observations from a re-analysis of the deposited data

How the results depend on the processing

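No paired analysis was possible because the labels do not say which pools came from the same collection and their replicate numbers do not repeat between sizes. For large versus small follicles 1008 of 15638 loci were called, and 5021 of all 85601 tested loci. The number was 8550 (all tested loci 55251) with total-count scaling and 516 to 1411 (2408 to 7002) when 1 replicate was left out. Among loci with a mean of at least 100 counts, 345 of 2741 were called, against 2340 of all 11770 loci under that filter. For medium versus small follicles 257 of 15638 were called, and 1252 of all 85601 tested loci. The number was 4977 (all tested loci 26364) with total-count scaling, 576 (2938) with the exact test and 590 (3037) with DESeq2. It was 461 (2214) at an FDR under 0.1, 142 (714) with only the 2 groups in the fit, and 0 to 1016 (0 to 5834) with a replicate left out. With the mean of at least 100 counts it was 151 of 2741, against 943 of all 11770 loci. For large versus medium follicles 0 were called, against 147 (exact test), 205 (DESeq2) and 44 (total-count scaling), and 0 to 0 with a replicate left out. With the mean of at least 100 counts 9 of 2741 were called, against 42 of all 11770 loci. The share changed by -1.29 percentage points per size step, and by -2.91 to -0.188 with a replicate left out. It turned to 13.2 points among loci of 18 to 30 bases (p = 0.0119, exact permutation test), to 2.08 without the 10 highest loci (p = 0.0679), to 3.52 for loci of 26 to 29 bases (p = 0.00119) and to 2.41 without the 7 chromosome 25 loci (p = 0.0238, added after seeing the data); these p-values are unadjusted. Clusters numbered 83 rather than 147 among loci with a mean of at least 100 counts. Of 446 repeats of the 26 named fold changes, 400 kept direction and call, 42 lost the call, 41 of these with a replicate left out, and 4 turned: chr4:112951033, chr6:76856587 and chr4:112970848 to 0.27, 0.30 and 1.37 with total-count scaling, and the last to 0.057 without large replicate 10 (range -1.271 to 0.057 with a replicate left out). The causes were not tested. The 26 include the 7 chromosome 25 loci, which are 1 profile, so the 400 are not separate observations. For the highest loci on chromosomes 4 and 6, which were not called, keeping the call means staying uncalled. DESeq2 gave no adjusted p for 6 other repeats, which are left out. Low-count loci are limited by depth.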
